A study of Mus musculus with 4 samples.

Results

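The 9 genes described here make, carry and destroy retinoic acid, the active form of vitamin A. They were taken by symbol, a rule that uses no measured value, although the set was proposed with earlier results of these data known. They are the retinaldehyde dehydrogenase genes Aldh1a1, Aldh1a2 and Aldh1a3, the retinol dehydrogenase gene Rdh10, the retinol uptake receptor gene Stra6, the binding protein genes Crabp1 and Crabp2, and the breakdown enzyme genes Cyp26a1 and Cyp26b1. All 9 had a row among the 55414 mouse genes of the deposited count table, and all 9 passed the filter on low counts that left 21592 genes to test. The data were 4 bulk messenger RNA sequencing libraries, 2 from wild-type mice (WT) and 2 from Stra8-KO mice (KO), with brain as the labelled tissue. By the series' design, animals of both genotypes also carried the pStra8-GFP reporter, a green fluorescent protein under control of the Stra8 promoter, and the RNA came from reporter-positive cells sorted out of the hippocampus. The sources used here do not give the age, sex and number of the animals, the knockout allele or the reporter line. Whether same-genotype libraries stem from different animals is not stated either, so p-values measure the spread between these libraries, which may be technical.

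Retinol is carried in blood by a binding protein that transthyretin holds in the circulation, and STRA6 lets it into cells. RDH10 oxidises retinol to retinaldehyde, and the ALDH1A enzymes oxidise retinaldehyde to retinoic acid. CRABP1 and CRABP2 bind retinoic acid in the cytosol, where CRABP2 is known for passing it to nuclear receptors, and the CYP26 enzymes oxidise it for removal. In adult brain the meninges are a known site of Aldh1a2, midbrain dopamine neurons of Aldh1a1, and subsets of neurons of Cyp26b1. Stra8 takes its name from its induction by retinoic acid, and Cyp26a1 and the receptor gene Rarb are textbook targets whose promoters hold a retinoic acid response element.

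Promoter sequence was read for the members and for a list of known retinoic acid targets, where an entry existed. Of the 9 genes, 6 (Aldh1a1, Aldh1a2, Crabp1, Cyp26a1, Cyp26b1 and Stra6) matched the RefSeq promoter table of build GRCm38.p6, with 10 entries of 300 bases, each from 250 bases before to 50 after an annotated start. Both strands were searched for direct repeats of the half-site AGGTCA, the half-site AGTTCA, the half-site GGGTCA or the half-site GGTTCA, in any combination, 1, 2 or 5 bases apart. With 5 bases between them, such repeats were present in 32 of 32851 promoters (0.0974%), and 1 of the 10 entries was among them, that of Cyp26a1. With 1 and 2 bases between them, repeats were present in 0.222% and 0.268% of promoters and in 0 of the 10 entries. Of the 22 genes on a list of known retinoic acid targets, 15 had an entry, and Cyp26a1 and Rarb were the 2 with a repeat at 5 bases. The 2 stretches are shown because each holds such a repeat, with the half-sites in capitals. They are written 5′ to 3′ on the gene's strand. The first lies at chr19:37697741-37697807 on the plus strand, and its repeat reads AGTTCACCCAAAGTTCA on the opposite strand and ends 15 bases before the annotated start. The second lies at chr14:16575478-16575564 on the minus strand, and its repeat reads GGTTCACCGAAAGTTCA on the gene's strand and ends 36 bases before the start.
Cyp26a1: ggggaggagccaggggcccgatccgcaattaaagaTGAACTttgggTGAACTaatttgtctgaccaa
Rarb: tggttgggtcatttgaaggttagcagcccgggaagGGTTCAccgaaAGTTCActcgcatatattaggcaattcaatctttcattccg
A match of letters is a description of the window and does not show that a receptor binds there in these cells.

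Total counts were 71097417 to 82172740 reads per library. Stra8, the targeted gene, had 5 and 1 reads in the WT libraries and 7 and 4 in the KO libraries, too few to check the genotype labels. Hippocampal markers were present in every library, with Prox1 of dentate granule cells at 45.98 to 56.8 CPM and Wfs1 of CA1 pyramidal cells at 123 to 133 CPM. CPM is the count scaled to the library's total over the genes kept for testing, multiplied by its TMM scaling factor. Markers of other regions were present too: the cerebellar granule cell gene Cbln3 lay between 19.7 and 47.3 CPM and the pituitary hormone gene Gh between 16.6 and 35.1 CPM. The libraries are therefore called WT and KO here, without a cell type. Every library held reads of Xist and of Y-linked genes, and these differed by genotype, with Kdm5d at 16.4 and 16.2 CPM in WT and 6.34 and 6.78 CPM in KO and Xist at 297 and 287 CPM in WT and 441 and 420 CPM in KO. The labels do not say whether a library pools animals, and a different mix of sexes cannot be told apart from the genotype in any difference given here.

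No member was called different between the genotypes. Of the 9 genes, 0 rose and 0 fell in KO (quasi-likelihood test in edgeR with Benjamini-Hochberg adjustment over all 21592 genes and a threshold of 0.05, n = 2 libraries per genotype), where 6.53% of all genes tested were called, 3.35% higher and 3.19% lower. At an unadjusted p under 0.05 there was 1 of 9, Aldh1a3, against 17.4% of all genes. DESeq2 and limma-trend also called 0 of the members. Estimated log2 fold changes, KO over WT, ran from -0.073 for Cyp26b1 to 0.44 for Aldh1a3, with 5 above 0 and 4 below, and a median of 0.069 against -0.00038 over all genes tested. The genotypes did not overlap for 3 of the 9, Aldh1a1 and Cyp26b1 (KO lower) and Aldh1a3 (KO higher), where 45.7% of all genes tested did not overlap. In bulk RNA, fewer cells of a type and less RNA per cell cannot be told apart, so each value below is a level over all the cells of a library.

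**Figure D1:**
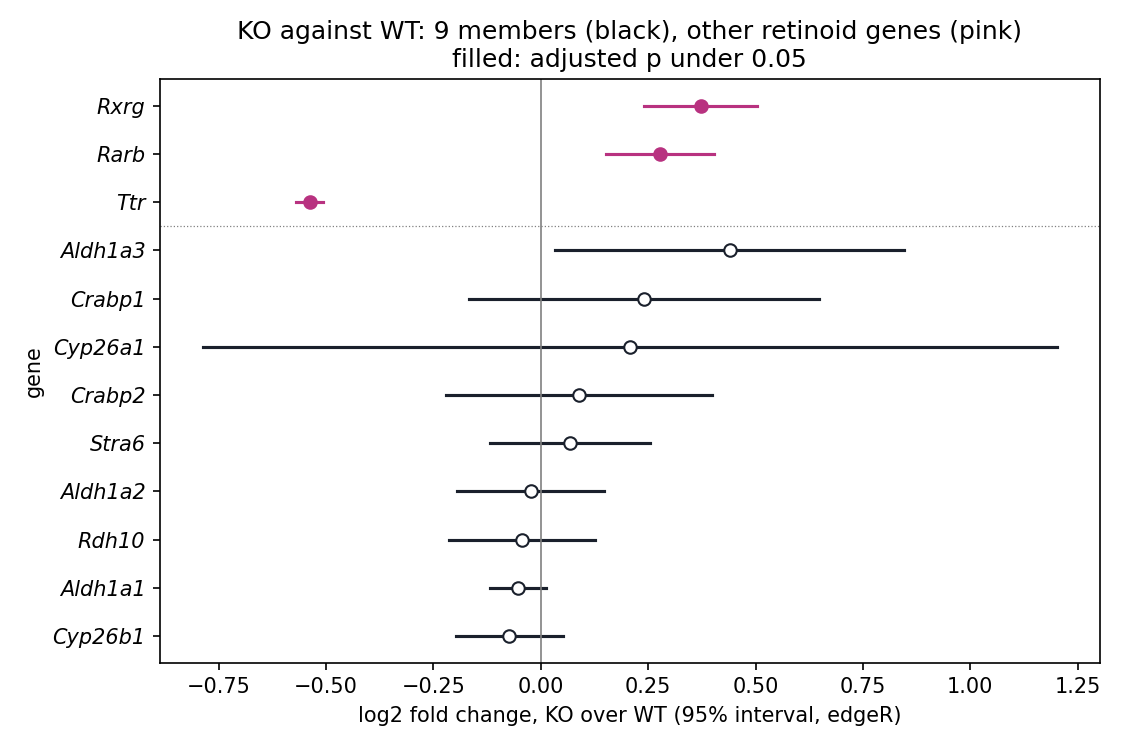
Log2 fold change, KO over WT, of the 9 members (black) and of 3 other retinoid genes that passed the test (pink), with 95% intervals from the edgeR fit, n = 2 libraries per genotype. Filled points have an adjusted p under 0.05; all 9 member points are open, and the interval of Aldh1a3 is the 1 member interval that does not reach 0.

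Levels between genes were compared per length, as CPM per kilobase of annotated exon (kb, from GENCODE M21, which is of build GRCm38 and not of the build of the counts). Aldh1a1 was the most abundant of the 9 on this scale, at 12.8 to 13.7 CPM per kb over the 4 libraries, higher than 83.2% of all genes tested. Aldh1a2 followed at 3.59 to 3.78 and Cyp26b1 at 2.99 to 3.26 CPM per kb. Rdh10 (2.11 to 2.37), Crabp2 (1.78 to 2.27) and Crabp1 (1.67 to 2.32 CPM per kb) overlapped each other, so these neighbours were not ordered beyond their spread. Stra6 lay below them at 1.18 to 1.33 CPM per kb. Aldh1a3 (0.242 to 0.388) and Cyp26a1 (0.111 to 0.185 CPM per kb) were the lowest, with Cyp26a1 above 11.2% of the genes tested.

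**Figure D2:**
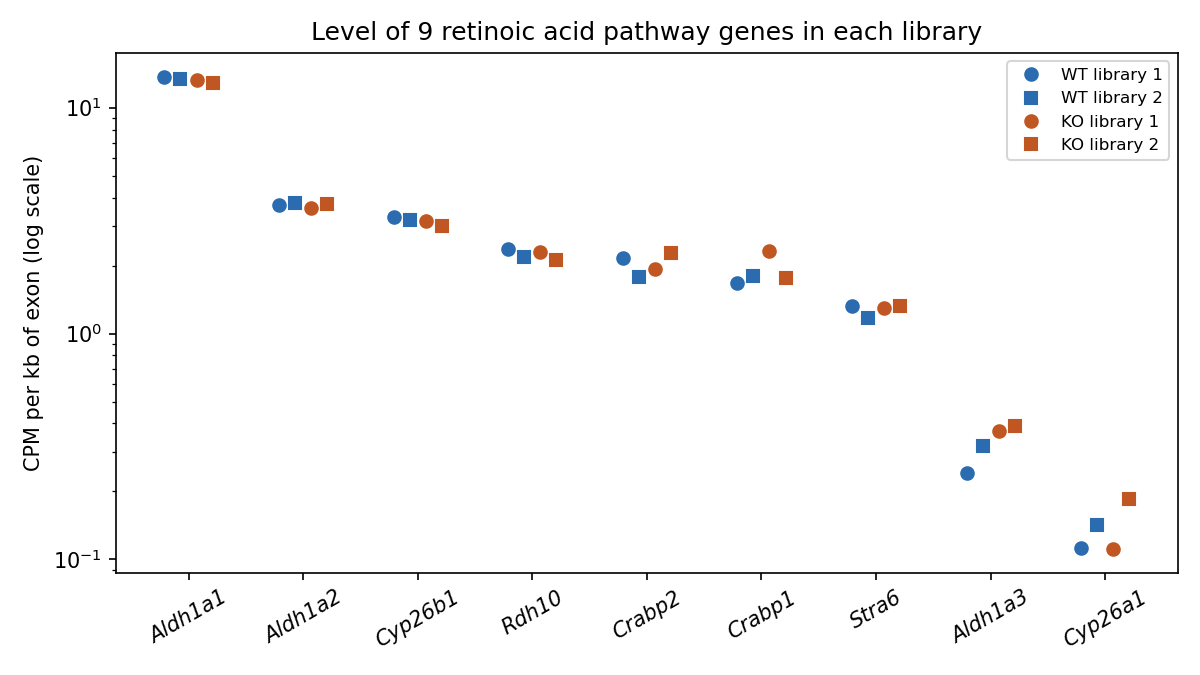
CPM per kb of exon (log scale) of the 9 members in each of the 4 libraries, WT in blue and KO in orange, with circles for library 1 and squares for library 2. The order runs from Aldh1a1 at 12.8 to 13.7 down to Cyp26a1 at 0.111 to 0.185 CPM per kb. Rdh10, Crabp2 and Crabp1 overlap each other, and the other neighbours in the order do not overlap.

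Among the genes of synthesis, Aldh1a1 (ENSMUSG00000053279) made up most of the dehydrogenase message. Per length it was 75.6% to 77.7% of the sum of the 3 Aldh1a genes, and 3.41 to 3.72 times the level of Aldh1a2. Its level was 67.7 and 66.0 CPM in WT and 65.5 and 63.3 CPM in KO. Both KO values lay below both WT values, but the gap between the nearest 2 was smaller than the difference within either genotype. The log2 fold change was -0.052, with SE 0.031 and an edgeR adjusted p = 0.429, and its 95% interval ran from a 0.922-fold to a 1.01-fold level in KO. This was the narrowest interval of the 9, reaching down to a fall of 7.83%, or of 10.2% without KO library 1. With 1 library left out the log2 fold change ranged from -0.078 (without KO library 1) to -0.027 (without KO library 2). Aldh1a7, a close mouse paralogue that can share reads with Aldh1a1, was far lower, with 66 to 84 reads per library against 4485 to 5462. Markers of midbrain dopamine neurons, which are known for Aldh1a1, were detected, but which cells gave the Aldh1a1 reads was not tested. Th, which makes the dopamine precursor, lay at 13.2 to 14.98 CPM and the dopamine transporter gene Slc6a3 at 8.24 to 9.98 CPM. All 8 markers of dopamine neurons were tested and 0 were called, with a summed level of 105.3 to 105.4 CPM in WT and 109.9 to 110.2 CPM in KO. Of that sum, 60.4 to 63.5 CPM came from Nr4a2, which many other neurons also express, and the other 7 summed to 44.3 to 45.0 CPM in WT and 46.7 CPM in both KO libraries. The genotypes did not overlap for 4 of the 8 markers higher in KO and 1 lower (22.8% and 22.9% of all genes tested). Slc6a3 and the midbrain factor gene Foxa1 were among the higher ones (log2 fold change 0.20 and 0.84, edgeR adjusted p = 0.161 and 0.107). Slc18a2 was the lower one (log2 fold change -0.18, edgeR adjusted p = 0.350). The defining factor gene Pitx3 was nearly undetected, at 0.073 to 0.169 CPM.

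Aldh1a2 (ENSMUSG00000013584), the main retinoic acid synthesis gene of the embryo, had 8.35 and 8.56 CPM in WT and 8.14 and 8.51 CPM in KO. The 2 genotypes overlapped. The log2 fold change was -0.024 (with SE 0.083 and edgeR adjusted p = 0.940), with a 95% interval of 0.873-fold to 1.11-fold. Markers of meningeal fibroblasts, which carry this gene in adult brain, were also present and not called, with 0 of 10 passing the test and a summed level of 127 to 129 CPM in WT and 131 to 134 CPM in KO. Among them the collagen gene Col1a2 lay at 32.5 to 35.99 CPM. Unadjusted p in edgeR was under 0.05 for 3 of the 10 (17.4% of all genes). Of these, Col1a2 and Col3a1 were higher in KO and Igf2 lower, with log2 fold changes of 0.10, 0.25 and -0.34.

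Aldh1a3 (ENSMUSG00000015134) had the largest estimated difference of the 9 and few reads behind it. There were 90 and 120 reads in the WT libraries and 140 and 127 in the KO libraries, or 1.12 and 1.46 CPM against 1.71 and 1.79 CPM. Both KO values were above both WT values, and WT library 1 was the lowest of the 4. The log2 fold change was 0.44 (SE 0.196, unadjusted p = 0.035 and adjusted p = 0.237 in edgeR), with a 95% interval of 1.02-fold to 1.80-fold that is not corrected for the number of genes. Without WT library 1 the log2 fold change was 0.26 (edgeR adjusted p = 0.729), and without WT library 2 it was 0.65 (edgeR adjusted p = 0.127). The difference did not hold up across all genes tested.

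Rdh10 (ENSMUSG00000025921), which catalyses the step before the dehydrogenases, had 9.87 and 9.10 CPM in WT and 9.56 and 8.79 CPM in KO. The genotypes overlapped, and the log2 fold change was -0.045 (with SE 0.082 and edgeR adjusted p = 0.864; 95% interval 0.862-fold to 1.09-fold). Stra6 (ENSMUSG00000032327), the receptor that takes retinol from its plasma carrier, had 7.71 and 6.85 CPM in WT and 7.52 and 7.75 CPM in KO. WT library 2 was the lowest, and the other 3 lay close together. For Stra6 the log2 fold change was 0.069 (with SE 0.090 and edgeR adjusted p = 0.788; 95% interval 0.922-fold to 1.19-fold). Choroid plexus epithelium, a tissue that moves retinol into the cerebrospinal fluid, had 6 of 9 markers called lower in KO and 0 higher. Over all genes tested these shares were 3.19% and 3.35%. The summed level of the 9 markers was 639 to 641 CPM in WT and 439 to 446 CPM in KO. Which cells gave the Stra6 reads was not tested, nor was the part of choroid plexus in its level. The interval of Stra6 reached down to a fall of 7.83% with all 4 libraries and of 15.1% without WT library 2, the low one, where the log2 fold change was -0.014.

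The binding protein genes were both low. Crabp1 (ENSMUSG00000032291) had 1.34 and 1.44 CPM in WT and 1.86 and 1.41 CPM in KO, so KO library 1 stood above the other 3 and the genotypes overlapped. KO over WT gave 0.24 on the log2 scale (SE 0.197, edgeR adjusted p = 0.607; 95% interval 0.891-fold to 1.57-fold), and without KO library 1 it was 0.023. Crabp2 (ENSMUSG00000004885) had 2.85 and 2.35 CPM in WT and 2.54 and 3.01 CPM in KO, with 1 library of each genotype high and 1 low. The log2 fold change of Crabp2 was 0.089 (SE 0.150, edgeR adjusted p = 0.848; 95% interval 0.858-fold to 1.32-fold). Per length, Crabp2 was 0.830 to 1.29 times the level of Crabp1, so neither was the more abundant in all 4 libraries.

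Of the breakdown genes, Cyp26b1 (ENSMUSG00000063415) had most of the message. It was 94.2% to 96.7% of the sum of both Cyp26 members per length, and 16.2 to 29.0 times the level of Cyp26a1. Its values were 17.5 and 17.1 CPM in WT and 16.8 and 16.0 CPM in KO. The KO libraries were the 2 lowest, by a step smaller than the difference within either genotype. The log2 fold change was -0.073 (with SE 0.061 and edgeR adjusted p = 0.614), with a 95% interval of 0.871-fold to 1.04-fold. With 1 library left out it ranged from -0.110 (without KO library 1) to -0.038 (without KO library 2). Cyp26a1 (ENSMUSG00000024987), the member whose promoter entry held the repeat shown above, was barely detected, with 18 and 23 reads in WT and 18 and 26 in KO. In WT library 1 this was 0.223 CPM (exact 95% Poisson interval 0.132 to 0.353) and in WT library 2 0.280 CPM (0.178 to 0.421). KO library 1 had 0.220 CPM (0.130 to 0.348) and KO library 2 had 0.367 CPM (0.240 to 0.538). These intervals cover counting error only, are too narrow where a pair adds both of its mates to the count, and all overlapped. For Cyp26a1 the log2 fold change was 0.21 (with SE 0.481 and edgeR adjusted p = 0.900), and the 95% interval of 0.579-fold to 2.30-fold was too wide for a change of the size seen in the other members to be detectable at this depth. Cyp26c1, the remaining family member, had 2 to 4 reads per library and did not pass the filter.

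The smallest change that was called differed with read number. Among the 4841 genes with a mean of 10 to 50 reads, the range of Cyp26a1, the smallest called change was 2.30-fold. Among 3027 genes with 50 to 200 reads, where Aldh1a3 and Crabp1 lie, it was 1.45-fold. Aldh1a2, Crabp2, Rdh10 and Stra6 fall among the 3770 genes with 200 to 1000 reads, where it was 1.18-fold. For Cyp26b1, among 3866 genes with 1000 to 3000 reads, it was 1.098-fold, and for Aldh1a1, among 3867 genes with 3000 to 10000 reads, 1.05-fold. Each member's estimate was below the smallest called change of its range. That change belongs to a gene that passed the test, so it is not the smallest change each member could show. Crabp2, for example, had an SE of 0.150 against a median of 0.097 among the genes of its range.

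**Figure D3:**
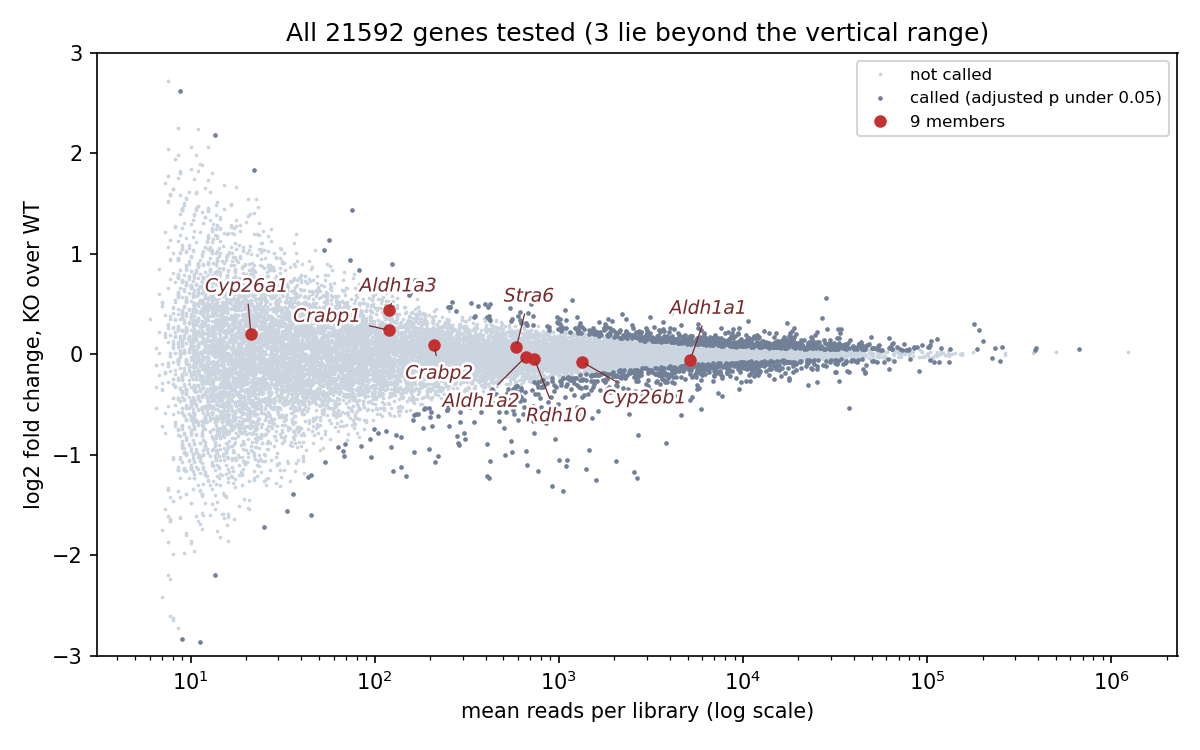
Log2 fold change, KO over WT, against mean reads per library (log scale) for the 21592 genes tested, of which 3 lie beyond the vertical range. Called genes are dark grey, other genes light grey and the 9 members red with their names; the members lie inside the band of genes that were not called.

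The other genes of the pathway were read from lists of known roles. For uptake, transport and storage, 10 of 13 genes were tested, and 1 fell and 0 rose. This is 10% called against 6.53% of all genes, with a median log2 fold change of 0.010. The gene that fell was Ttr, which encodes transthyretin and is also the leading choroid plexus marker: it had 560.5 and 559.9 CPM in WT and 388 and 383 CPM in KO (log2 fold change -0.54, SE 0.015, edgeR adjusted p = 1.29e-17). The choroid plexus markers fell with it, as given beside Stra6, and their part in the difference was not tested. Rbp4, the plasma retinol carrier, lay at 6.82 to 7.33 CPM and was not called. For interconversion of retinol and retinaldehyde, 10 of 16 genes were tested and 0 were called, with a median of -0.033. The 4 with the smallest p were Adh1, Rdh14, Rdh11 and Rdh13, with edgeR adjusted p from 0.573 to 0.807. Dhrs3, which turns retinaldehyde back to retinol and is itself a known target of retinoic acid, lay at 15.2 and 15.0 CPM in WT and 14.3 and 15.2 CPM in KO (log2 fold change -0.037, SE 0.065).

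The remaining oxidation and binding genes gave 0 calls among 3 tested of 4, with a median of -0.22. Fabp5, a fatty acid binding protein gene that can also carry retinoic acid to a nuclear receptor, had 53.5 and 51.9 CPM in WT and 54.6 and 57.1 CPM in KO (log2 fold change 0.082, SE 0.035, edgeR adjusted p = 0.203). Cyp1b1, a P450 gene able to oxidise retinol, had 5.43 and 4.95 CPM in WT and 4.45 and 4.43 CPM in KO (log2 fold change -0.22, SE 0.108, edgeR adjusted p = 0.282). Aldh8a1, another retinaldehyde dehydrogenase gene, had only 20 and 24 reads in WT and 13 and 12 in KO (log2 fold change -0.72, SE 0.526, edgeR adjusted p = 0.552). The genotypes did not overlap in any of the 3, with 1 higher and 2 lower in KO, where 45.7% of all genes tested did not overlap. Unadjusted p in edgeR was under 0.05 for 2 of the 3, Fabp5 and Cyp1b1 (17.4% of all genes).

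Of the 6 receptor genes 2 rose and 0 fell, which is 33.3% called against 6.53% of all genes. Their median log2 fold change was 0.0082. Rarb, a retinoic acid receptor gene and direct target of the pathway, had 14.7 and 14.9 CPM in WT and 18.1 and 17.7 CPM in KO (log2 fold change 0.28, SE 0.061, edgeR adjusted p = 0.00423). Rxrg, a retinoid X receptor gene, had 13.4 and 14.4 CPM in WT and 18.3 and 17.7 CPM in KO (log2 fold change 0.37, SE 0.064, edgeR adjusted p = 0.000324). Both receptors are known from striatal projection neurons, and all 6 markers of those neurons rose in KO, against 3.35% of all genes. The summed level of these markers was 489.97 to 490.2 CPM in WT and 581 to 594 CPM in KO. The part of striatal projection neurons in the receptor differences was not tested. Rxra had 40.6 and 39.97 CPM in WT and 36.6 and 37.7 CPM in KO and did not pass (log2 fold change -0.12, SE 0.040, edgeR adjusted p = 0.081).

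Of the 22 known retinoic acid targets on the list, which holds 4 of the 9 members and 3 of the receptors, 17 were tested, 1 rose (Rarb) and 1 fell, which is 11.8% called against 6.53% of all genes. Unadjusted p in edgeR was under 0.05 for 5 of the 17 (17.4% of all genes). Of these, Rarb was higher in KO, and Pdk4, Nrip1, Hoxa4 and Hoxb4 were lower. Hoxa4 and Hoxb4 had the largest estimates of the list on few reads. Their log2 fold changes were -1.59 and -1.20, at 4 to 24 and 10 to 28 reads per library. There were 6 estimates above 0, 11 below and a median log2 fold change of -0.073. The genotypes did not overlap for 1 gene higher and 8 lower in KO (22.8% and 22.9% of all genes). The gene that fell was Pdk4, a kinase gene that limits entry of pyruvate into the citric acid cycle and that hormones and fasting also induce. It had 10.5 and 9.86 CPM in WT and 8.32 and 7.55 CPM in KO (log2 fold change -0.36, SE 0.083, edgeR adjusted p = 0.00748). Its call ended without WT library 1 or without KO library 2, where its log2 fold change was -0.31 (edgeR adjusted p = 0.070) and -0.29 (edgeR adjusted p = 0.065). Of the 2 genes with the repeat shown above, Rarb was called and Cyp26a1 was not, and at 18 to 26 reads Cyp26a1 could not show a change of the size seen in Rarb.

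Marker genes of several brain regions and cell types differed between the genotypes. Over all genes tested, 3.35% were called higher and 3.19% lower in KO. Cerebellar neuron markers fell in 5 of 5 tested genes and summed to 175 to 180 CPM in WT and 81.8 to 83.6 CPM in KO. Dentate granule cell markers fell in 5 of 6 tested genes, from 118 to 120 CPM in WT to 84.5 to 87.6 CPM in KO, and CA pyramidal cell markers fell in 4 of 5. Anterior pituitary markers fell in 3 of 4 tested genes. All 6 oligodendrocyte markers rose, and their sum in KO was 106% of the WT mean in both libraries. Among astrocyte markers 2 of 6 fell and 0 rose, in microglia 0 of 6 were called, and in brain endothelium 1 of 6 rose. Whether these shifts add to or mask a difference in any member was not tested.

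**Figure D4:**
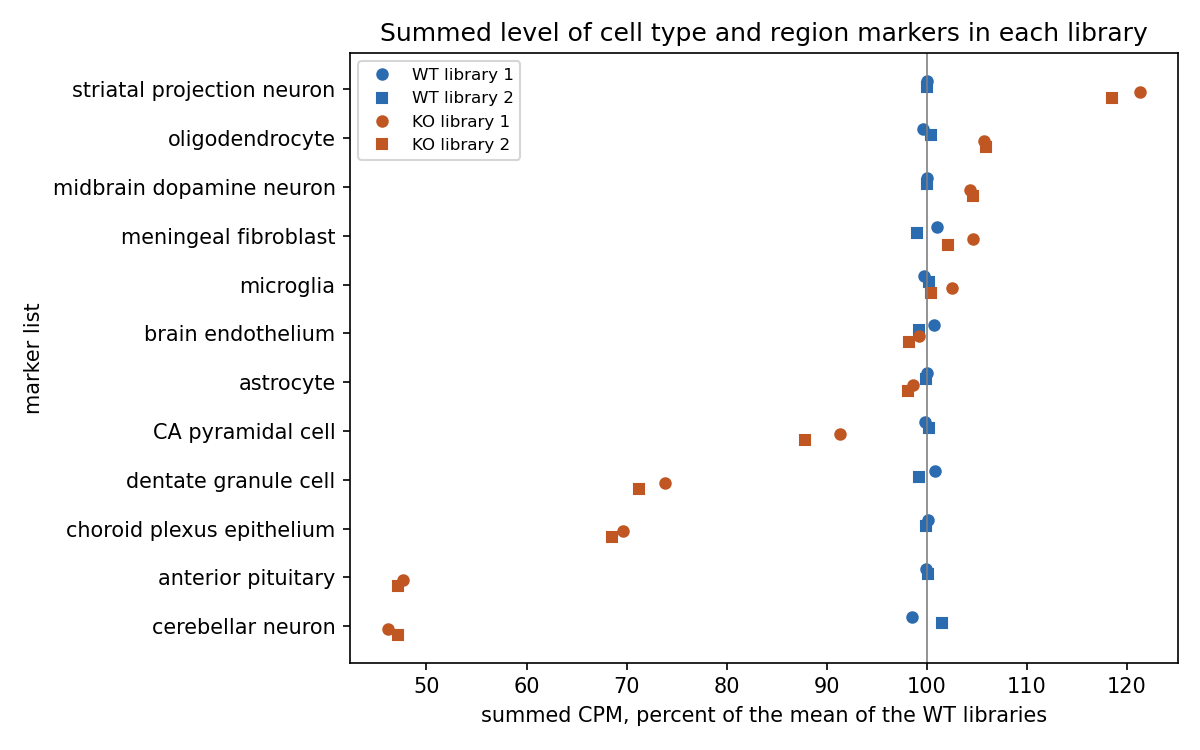
Summed CPM of 12 marker lists in each library as a percent of the mean of the WT libraries, WT in blue and KO in orange. Cerebellar and pituitary lists lie at 46.1% to 47.6% in KO and the striatal list at 119% and 121%. The midbrain dopamine and meningeal lists, which mark cells known for Aldh1a1 and Aldh1a2, lie between 102% and 105%.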

How the data were processed

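Strand-specific libraries were made from messenger RNA caught with oligo dT and read as pairs, per the labels' protocols. The authors deposited 1 table of raw counts. The submitters' processing notes name build GRCm39 and the tools DESeq2, featureCounts, FastQC and STAR 2.6.1c. The roles of these tools, the annotation release and the strand setting are not stated in the sources used here. Of the counts from 1 to 20, 72.8% to 74.3% were even, which points to both mates of a pair being counted. Columns were matched to samples by the title within their names; both KO columns, and neither WT column, add a suffix whose meaning is not stated. Symbols were found for 52081 of 55414 identifiers. No exon of another gene overlapped a member's exons in GENCODE M21.

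Genes were kept with filterByExpr (minimum count 10), scaled with TMM (factors 0.997 to 1.005) and tested for genotype with edgeR 4.0.16 (glmQLFit, glmQLFTest) in R 4.3.3. The standard error is the log2 fold change over the square root of F. The procedure was tested on simulated data. Alternatives used DESeq2 1.42.0, limma 3.58.1, other scalings and filters, halved counts, dispersion 0, a replicate block and each library left out. Named genes were Stra8, all members, and in each pathway list the called genes or else up to 4 with the smallest p. Rbp4, Dhrs3, Rxra, Nrip1, Hoxa4, Hoxb4, Cyp26c1, Aldh1a7, Kdm5d, Xist and the markers named were added by choice. The members and lists were chosen with earlier results of these data known, so counts over them are descriptions.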

Additional observations from a re-analysis of the deposited data

How the results depend on the processing

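No member was called under any of the 13 alternatives, of which 9 changed the model, scaling, filter or counts and 4 left out a library. The lowest adjusted p of a member was 0.127. Cyp26a1 did not pass the minimum count of 50 and had no adjusted p in DESeq2. Of 116 member values, 109 kept the direction and 7 reversed, all of the 7 with 1 library left out. With 1 library left out, the log2 fold change of Aldh1a2 ranged from -0.055 to 0.0094 (without KO library 1), of Cyp26a1 from -0.19 (without KO library 2) to 0.54, and of Stra6 from -0.014 (without WT library 2) to 0.16. That of Crabp2 ranged from -0.043 without WT library 2 and -0.033 without KO library 2 to 0.23. That of Rdh10 ranged from -0.108 to 0.014 without KO library 2 and 0.016 without WT library 1. The directions of these 5 genes are therefore not established. Those of the other members did not reverse, but none was called, so they are not established either. Leaving out a library leaves a lone one that is assumed to vary like the other genotype's. The calls of Rarb, Rxrg and Ttr held in all 13. Over all genes, 723 were called higher and 688 lower. The labels share replicate numbers, and with the replicate block these counts were 818 and 772, and 0 members were called. Deviations of same-numbered libraries correlated at 0.016, so the numbers are not taken to pair the samples. With each library left out in turn the counts ranged from 558 to 660 higher and from 506 to 618 lower.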
